A study of Mus musculus with 12 samples.

Results

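A set of 10 imprinted genes known for a part in the growth of fat tissue or of the body was followed in epididymal white adipose tissue (eWAT) of mice: Mest, Nnat, Peg3, Dlk1, H19, Igf2, Plagl1, Grb10, Cdkn1c and Sgce. They were found by gene symbol, and the transcripts of each symbol were summed. Of the 10 genes, 9 had transcripts in the table and 8 passed the filter on low values, which asked for 1 FPKM or more in 3 or more libraries, out of 12793 genes that passed it among 23036 genes summed. H19 had no transcript among the rows used and was not analysed here. Dlk1 stayed below 1 FPKM in every library and was not tested. FPKM scales fragments to transcript length and library total, so levels can be set side by side between genes.

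The tissue came from male C57BL/6J mice at 21 weeks of age, after 16 weeks on the diets, with 3 mice in each of 4 groups. The ND group ate a normal diet with 12% of kcal from fat, and the HFD group ate a high-fat diet with 45% of kcal from fat. The CLE group ate the same high-fat diet with an ethanol extract of chrysanthemum leaf at 1.5% of diet weight, and the LU group ate it with 0.003% by weight of luteolin, a flavonoid. No mouse carried a transgene or a deleted gene, the study describes the mice sequenced as representative of larger groups, and RNA was taken from the whole tissue. The mice are called here by the numbers in their labels (ND 2, 3 and 4, HFD 12, 15 and 18, CLE 2, 4 and 11, and LU 2, 3 and 8). The column used for ND 4 is headed MD4 and was read as that mouse because it carries its number and letter R and stands beside other ND columns. The labels of ND 3, ND 4, CLE 4 and LU 2 hold a letter R, which is not explained, and no HFD library carries it.

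An imprinted gene is read from only the maternal or only the paternal copy, and the choice is set in the germ line by DNA methylation at CpG-rich control regions. Many imprinted genes act on growth, on the balance between proliferation and differentiation, or on insulin and IGF signaling, and several are known for their expression in fat cells and their precursors. Nnat, Peg3, Plagl1, Igf2, Mest, Dlk1 and Sgce are read from the paternal copy in most tissues, and Grb10 (outside neurons), Cdkn1c and H19 from the maternal copy. In the genome (GENCODE M21, GRCm38) Mest lies at chr6:30723547-30748465 and Sgce at chr6:4674350-4747207. Igf2 at chr7:142650766-142666816 and Cdkn1c at chr7:143458339-143461050 share a large imprinted cluster, and Peg3 lies at chr7:6703892-6730431 on the same chromosome. Nnat lies at chr2:157560078-157562522, Plagl1 at chr10:13060504-13131694, Grb10 at chr11:11930508-12038683 and Dlk1 at chr12:109452823-109463336. The FPKM values sum both copies, so imprinting itself was not measured.

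The stretches of 150 bases that precede the start sites carrying most of the signal are shown for 4 genes, because start sites can differ in whether they are imprinted. These are Mest, which was called in no comparison, and the 3 genes with the largest log2 fold changes of FPKM + 1 in HFD against ND. The sequences are from RefSeq (GRCm38.p6), written 5′ to 3′ on the strand of the gene, with CpG pairs in capitals. They lie at chr6:30737900-30738049 for Mest, chr2:157559928-157560077 for Nnat, chr7:6730420-6730569 on the minus strand for Peg3 and chr11:12037421-12037570 on the minus strand for Grb10.
Mest: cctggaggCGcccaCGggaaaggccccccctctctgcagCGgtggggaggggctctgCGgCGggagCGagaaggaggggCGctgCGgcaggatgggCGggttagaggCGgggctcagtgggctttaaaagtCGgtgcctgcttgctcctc
Nnat: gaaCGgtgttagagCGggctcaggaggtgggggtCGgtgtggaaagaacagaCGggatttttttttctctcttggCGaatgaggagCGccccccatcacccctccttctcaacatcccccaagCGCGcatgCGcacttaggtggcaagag
Peg3: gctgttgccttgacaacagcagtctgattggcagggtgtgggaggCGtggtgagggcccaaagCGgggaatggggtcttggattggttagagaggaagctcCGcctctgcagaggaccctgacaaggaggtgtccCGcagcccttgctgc
Grb10: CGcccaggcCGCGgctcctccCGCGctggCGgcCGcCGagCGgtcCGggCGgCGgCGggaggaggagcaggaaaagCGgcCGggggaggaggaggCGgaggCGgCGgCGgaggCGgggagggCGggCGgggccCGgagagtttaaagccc
These stretches hold 11 CpG pairs for Mest, 9 for Nnat, 4 for Peg3 and 23 for Grb10. Over the stretches of the same length before 32851 RefSeq start sites, the median was 4 CpG pairs, and 3.32% held as many as Grb10 or more. CpG was counted as the letters CG, which read the same on both strands. A start site was assigned to a deposited transcript beginning within 500 bases of it. In Mest, 98.3% to 99.0% of the FPKM of every library began at the site shown. A second RefSeq site of Mest, upstream of it, had signal in 1 library, LU 8, at 0.375 FPKM. Farther upstream, at chr6:30723547, no RefSeq site was within reach, but an assembled Mest transcript begins there. It held 1.28 FPKM in ND 2, 0.699, 1.88 and 0.564 FPKM in HFD 12, 15 and 18, and 2.74 FPKM in CLE 11, with almost none in the other libraries. In Nnat, 95.8% to 97.6% of the FPKM began at the site shown. The shares were 55.4% to 82.3% for Peg3 and 60.2% to 84.8% for Grb10. A second Grb10 site, inside the gene, held 0.557% to 3.96%.

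The genes spanned a wide range of levels. In ND mice the order was Nnat, Mest, Peg3, Sgce, Plagl1, Grb10, Cdkn1c, Igf2 and Dlk1, from a mean of 1160.05 FPKM for Nnat to 0.704 FPKM for Dlk1. The mice of Sgce and Plagl1, and those of Plagl1 and Grb10, overlapped in that order, and no other neighbours in it did. In HFD mice Mest stood first at 743 FPKM and Nnat second at 449.6 FPKM, with no overlap. In CLE mice Nnat was again above Mest in every mouse, and in LU mice Nnat (855 FPKM on average) and Mest (727 FPKM) overlapped.

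**Figure D1:**
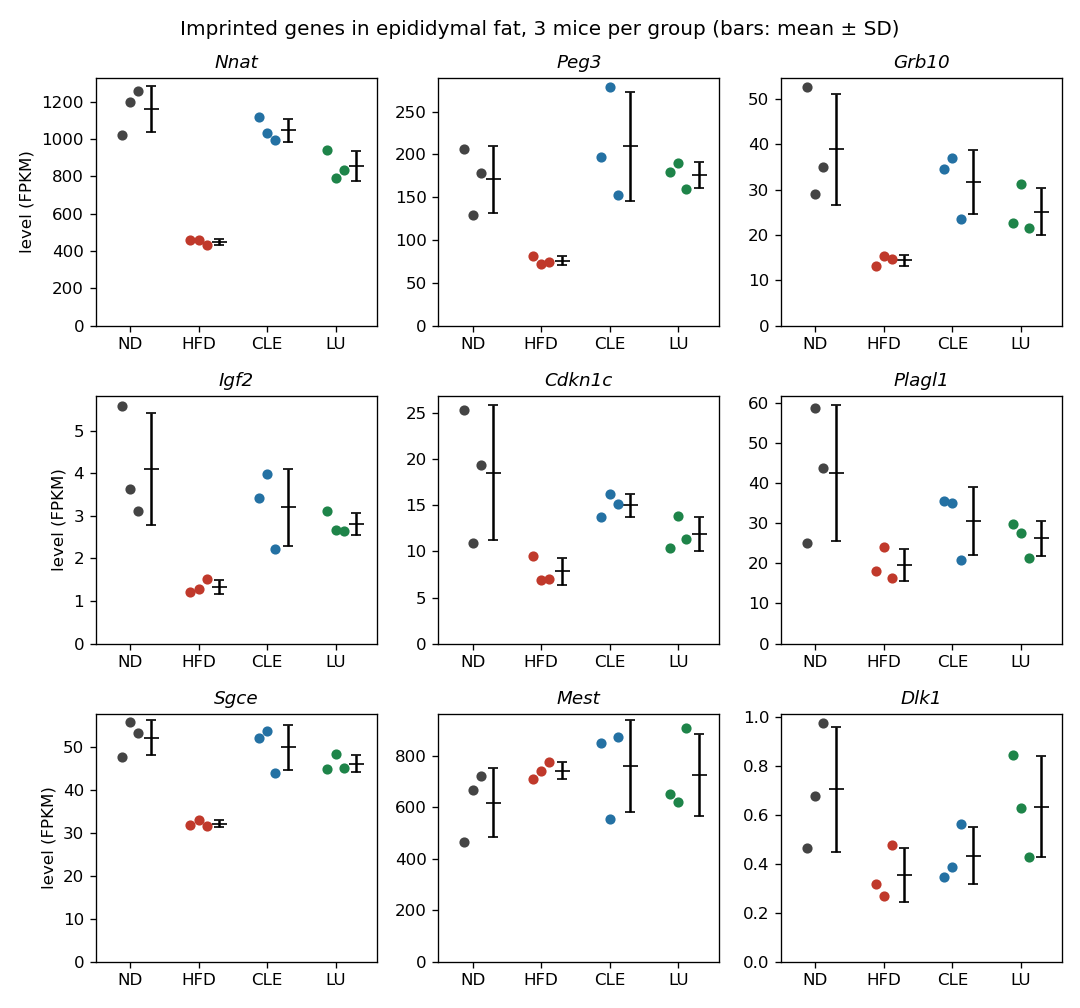
Level of each imprinted gene in FPKM (vertical axis, from 0) in each mouse of the ND, HFD, CLE and LU groups (points), with the mean and SD of the 3 mice (bars). In 7 of the 9 panels every HFD mouse lies below every ND mouse, and in the panels of Mest and Dlk1 the groups overlap.

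With the high-fat diet, 7 of the 8 tested genes fell: Nnat, Grb10, Peg3, Igf2, Cdkn1c, Plagl1 and Sgce. Their log2 fold changes ran from -1.36 for Nnat to -0.68 for Sgce, and Mest stood at 0.29 with overlapping mice. A gene was called where the adjusted p of limma (Benjamini-Hochberg over all genes tested) was under 0.05 and the fold change on the scale of FPKM + 1 was over 1.5. Of all 12793 genes, 10.8% were called lower in HFD mice. In the same 7 genes every HFD mouse lay below every ND mouse, as in 29.4% of all genes. The median log2 fold change was -1.09 over the 8 genes and -0.02 over all genes.

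Nnat encodes neuronatin, a small membrane protein of the endoplasmic reticulum that acts on calcium handling. It measured 1022, 1199 and 1259 FPKM in ND 2, 3 and 4, and 459, 459 and 431 FPKM in HFD 12, 15 and 18. In the CLE mice it measured 1116, 1034 and 995 FPKM, and in the LU mice 943, 790.5 and 833 FPKM. The HFD mice were thus the lowest by a wide margin, the CLE mice overlapped the ND mice, and every LU mouse lay between the HFD and the ND mice. The level was 2.58-fold lower in HFD than in ND mice (log2 fold change -1.36 ± 0.10 (SE), adjusted p = 1.4e-06, limma), and only 160 of the 12793 genes had a lower log2 fold change. It was higher than in HFD mice by 1.22 ± 0.10 on the log2 scale in CLE mice (adjusted p = 1.9e-05, limma) and by 0.92 ± 0.10 in LU mice (adjusted p = 0.00019, limma).

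Peg3 encodes a zinc finger protein that binds DNA and acts on growth and on the p53 pathway. It measured 206, 129 and 178 FPKM in the ND mice and 81.6, 71.6 and 74.3 FPKM in the HFD mice. The CLE mice had 197, 278 and 153 FPKM and the LU mice 179, 189.6 and 159.9 FPKM, all above every HFD mouse. The log2 fold change was -1.14 ± 0.21 (SE) in HFD against ND (adjusted p = 0.00079), 1.41 ± 0.21 in CLE against HFD (adjusted p = 0.00039) and 1.21 ± 0.21 in LU against HFD (adjusted p = 0.0017), by limma. In CLE against HFD, 12746 of the 12793 genes had a lower log2 fold change than Peg3. Much of the signal belongs to transcripts assembled by the authors that differ from the annotated ones at a splice junction. The largest of them begins inside the gene. Its mean was 61.2 FPKM in ND mice (35.8% of Peg3) and 16.8 FPKM in HFD mice (22.2%). Without the assembled transcripts the fall in HFD mice was -0.62 on the log2 scale with an adjusted p of 0.11 (limma), and the call was lost. In the transcript with the highest mean over all libraries taken alone, an annotated one, Peg3 was still called lower in HFD mice. That transcript had a mean of 59.2 FPKM in ND and 35.8 FPKM in HFD mice.

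Plagl1, a zinc finger transcription factor that restrains proliferation, had the largest standard error of the 7 genes in the fit. The ND mice had 25.1, 58.9 and 43.7 FPKM, the HFD mice 18.2, 24.0 and 16.3 FPKM, the CLE mice 35.6, 35.2 and 20.8 FPKM, and the LU mice 29.9, 27.5 and 21.3 FPKM. The lowest ND mouse was barely above the highest HFD mouse, and the CLE and LU mice overlapped both. The log2 fold change in HFD against ND was -1.02 ± 0.29 (SE, adjusted p = 0.012, limma). It was 0.60 ± 0.29 in CLE against HFD (adjusted p = 0.13, limma) and 0.41 ± 0.29 in LU against HFD (adjusted p = 0.32, limma), neither of which passed. The call in HFD mice was lost with the letter R as a covariate (-0.66, adjusted p = 0.07, limma), without the libraries that carry the letter (-0.36, adjusted p = 0.40), which leaves ND 2 alone in its group, and without the assembled transcripts (-0.79, adjusted p = 0.077). Without CLE 11, Plagl1 was called higher in CLE than in HFD mice (0.84, adjusted p = 0.047, limma).

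Igf2, the fetal growth factor that signals through the IGF1 and insulin receptors, was the lowest of the tested genes. It measured 5.59, 3.62 and 3.10 FPKM in the ND mice and 1.21, 1.28 and 1.53 FPKM in the HFD mice. The CLE mice had 3.42, 3.98 and 2.21 FPKM and the LU mice 3.11, 2.67 and 2.65 FPKM. No HFD mouse reached the lowest mouse of any other group. Igf2 shares 3596 of its 5723 exon bases with Gm49394 on the same strand, which has no value among the genes summed. The part of Gm49394 in these values was not tested. The mean level was 3.07-fold lower in HFD than in ND mice, and the log2 fold change of FPKM + 1, which understates the change of so low a gene, was -1.10 ± 0.18 (SE, adjusted p = 0.00044, limma). Igf2 was called higher in CLE mice (0.83 ± 0.18, adjusted p = 0.005) and in LU mice (0.71 ± 0.18, adjusted p = 0.015) than in HFD mice, by limma. Both of these calls were lost in the transcript with the highest mean taken alone (adjusted p = 0.061 and 0.32) and without the assembled transcripts (adjusted p = 0.069 and 0.12). The LU call was also lost without HFD 12 (adjusted p = 0.054) or LU 2 (adjusted p = 0.052).

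Grb10 encodes an adaptor that binds the insulin and IGF1 receptors and dampens their signaling. The ND mice had 52.5, 29.1 and 34.9 FPKM, the HFD mice 13.04, 15.3 and 14.8 FPKM, the CLE mice 34.6, 36.9 and 23.6 FPKM, and the LU mice 22.6, 31.1 and 21.6 FPKM. Every HFD mouse was below every other mouse. Grb10 changed on the log2 scale by -1.33 ± 0.22 (SE) in HFD against ND (adjusted p = 0.00042), 1.07 ± 0.22 in CLE against HFD (adjusted p = 0.0033) and 0.75 ± 0.22 in LU against HFD (adjusted p = 0.026), by limma. The LU call was lost without HFD 12, HFD 15, HFD 18 or LU 3 (adjusted p = 0.052 to 0.11) and without the filter on low values (adjusted p = 0.055).

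Cdkn1c encodes p57, an inhibitor of cyclin-dependent kinases that holds cells out of the cell cycle. The ND mice ranged widely, at 25.4, 10.9 and 19.4 FPKM, while the HFD mice had 9.55, 6.88 and 7.06 FPKM. The CLE mice had 13.7, 16.2 and 15.1 FPKM and the LU mice 10.4, 13.9 and 11.4 FPKM, again all above the HFD mice. Cdkn1c shares 625 of its 2039 exon bases with Gm44732 on the opposite strand, which has no value among the genes summed. The part of Gm44732 in these values was not tested. The change was -1.09 ± 0.24 (SE) on the log2 scale in HFD against ND (adjusted p = 0.0028) and 0.87 ± 0.24 in CLE against HFD (adjusted p = 0.015), by limma. In LU against HFD it was 0.55 ± 0.24 and did not pass (adjusted p = 0.11, limma), while without the libraries that carry the letter R it passed (0.64, adjusted p = 0.029). The CLE call was lost without HFD 15, HFD 18 or CLE 4 (adjusted p = 0.053 to 0.054) and in the highest transcript alone (adjusted p = 0.058).

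Sgce encodes epsilon-sarcoglycan, a membrane protein of the dystrophin-associated complex that is also made outside muscle. In HFD against ND it had the smallest change of the 7 genes. The ND mice had 47.6, 55.8 and 53.3 FPKM, the HFD mice 31.9, 33.1 and 31.6 FPKM, the CLE mice 52.1, 53.8 and 44.0 FPKM, and the LU mice 44.9, 48.4 and 45.2 FPKM. Sgce changed by -0.68 ± 0.09 (SE) on the log2 scale in HFD against ND (adjusted p = 0.00011) and 0.61 ± 0.09 in CLE against HFD (adjusted p = 0.00049), by limma. In LU against HFD it was 0.51 ± 0.09 with an adjusted p of 0.0026, which passed the test while the fold stayed under 1.5. The changes lie near that fold, and the CLE value fell below it without CLE 2 (0.58), without CLE 4 (0.56), without all libraries of the letter R (0.56) and with the letter R as a covariate (0.58). Without the libraries of the letter R the HFD value was -0.55 (adjusted p = 0.014, limma), also under the fold.

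Mest encodes a protein of the alpha/beta hydrolase fold in the endoplasmic reticulum and is known as a marker of fat cell enlargement. It was among the highest genes of the set, at 465, 668 and 722 FPKM in the ND mice and 710.1, 740.5 and 778 FPKM in the HFD mice. The CLE mice had 852, 555 and 873 FPKM and the LU mice 650.0, 619.7 and 910.0 FPKM. The groups overlapped. The coefficient of variation was 21.9% in ND, 23.4% in CLE and 22.0% in LU mice, against 4.55% in HFD mice. Mest changed by 0.29 on the log2 scale in HFD against ND (95% interval -0.17 to 0.75, adjusted p = 0.27, limma), 0.00 in CLE against HFD (-0.45 to 0.46) and -0.05 in LU against HFD (-0.51 to 0.41). Without the libraries that carry the letter R, where ND 2 alone stands for ND, Mest was called higher in HFD mice (0.67, adjusted p = 0.034, limma). Copg2, a coat protein gene on the opposite strand, shares 912 exon bases with the end of Mest, and its reads cannot be told apart from those of Mest there if the libraries kept no strand, which the sources used here do not give. Copg2 was lowest in ND 2 (65.5 FPKM) and highest in LU 8 (136 FPKM), as Mest was. The part of Copg2 in these values was not tested.

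Dlk1, which holds preadipocytes back from differentiation, measured 0.463, 0.676 and 0.974 FPKM in the ND mice and 0.318, 0.269 and 0.478 FPKM in the HFD mice. The CLE mice had 0.346, 0.387 and 0.564 FPKM and the LU mice 0.843, 0.628 and 0.430 FPKM, and all groups overlapped. In every library 99.998% or more of this signal belonged to transcripts that begin more than 500 bases from its RefSeq start site. The one with the highest mean is itself an annotated protein-coding transcript, which begins at chr12:109453455.

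**Figure D2:**
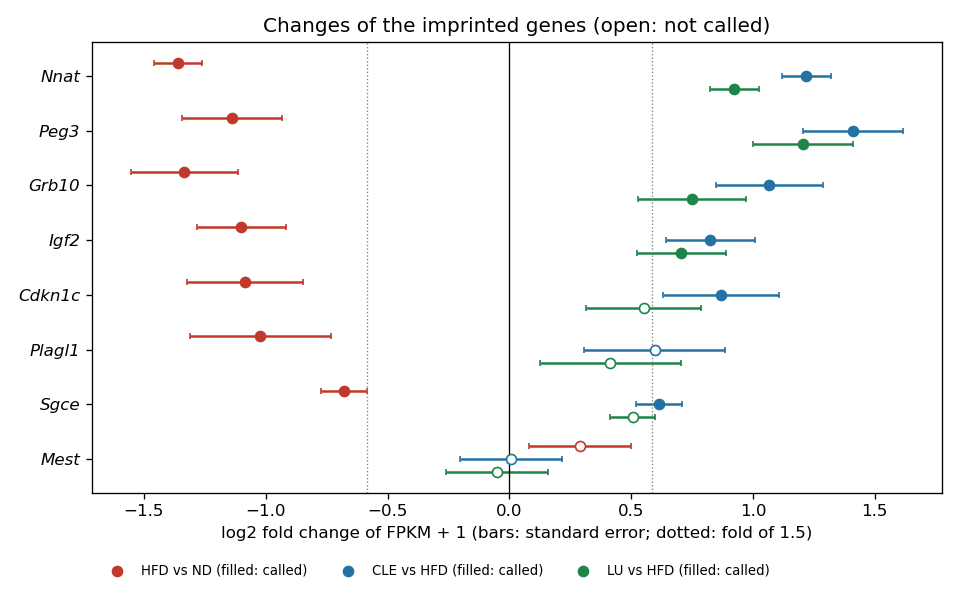
Log2 fold change of FPKM + 1 (horizontal axis, with the standard error as bars) of the 8 tested imprinted genes in HFD against ND, CLE against HFD and LU against HFD. Filled points passed the test and the fold of 1.5 (dotted lines); 7 points lie to the left in HFD against ND, and the points of Mest stay near 0.

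CLE and LU mice answer whether each supplement moved the genes within the high-fat diet. In CLE against HFD mice 6 of the 8 genes were called higher (Nnat, Peg3, Grb10, Igf2, Cdkn1c and Sgce), beside 6.35% of all genes, and in these 6 every CLE mouse lay above every HFD mouse, as in 24.3% of all genes. In LU against HFD mice 4 were called higher (Nnat, Peg3, Grb10 and Igf2), beside 4.78% of all genes. Cdkn1c and Sgce also had every LU mouse above every HFD mouse, so that 6 of the 8 did not overlap, beside 25.6% of all genes. The median log2 fold change of the 8 genes was 0.85 in CLE and 0.63 in LU against HFD, where that of all genes was 0.01 and 0.03. All 3 comparisons share the HFD mice, so their opposite directions are not separate evidence.

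**Figure D3:**
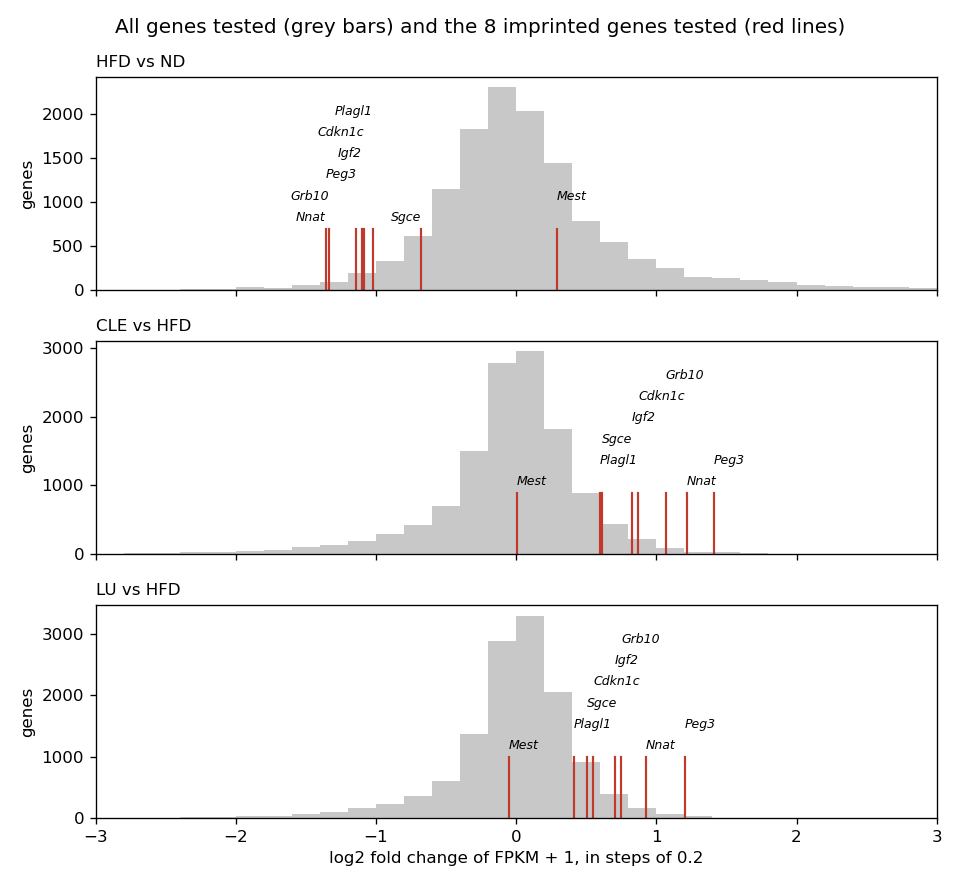
Number of genes (vertical axis) by log2 fold change of FPKM + 1 (horizontal axis, cropped at 3 on either side) for the 12793 genes tested in HFD against ND, CLE against HFD and LU against HFD, with the 8 tested imprinted genes as red lines. The 7 genes that were called lie in the left tail in the upper panel, and Peg3 and Nnat lie farthest to the right in both lower panels.

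The supplemented mice were also set against each other and against ND mice, which asks whether the levels of the 2 supplements differed and whether they matched the normal diet. In CLE against LU none of the 8 genes was called, and 1 of the 8 had an unadjusted p under 0.05. Of all genes 0.00782% were called. That gene was Nnat, in which every CLE mouse was above every LU mouse (log2 fold change 0.30, 95% interval 0.08 to 0.51, unadjusted p = 0.012, adjusted p = 0.90, limma). The intervals of Grb10 (-0.16 to 0.80), Cdkn1c (-0.20 to 0.84), Plagl1 (-0.45 to 0.82) and Peg3 (-0.24 to 0.66) reach beyond a fold of 1.5. Those of Igf2 (-0.28 to 0.52) and Mest (-0.40 to 0.52) come close to it. A difference of about that size is thus not excluded for these genes. For Sgce the interval ran from -0.10 to 0.31.

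In CLE against ND none of the 8 genes was called and none had an unadjusted p under 0.05, beside 2.99% of all genes called. The widest deficit was that of Plagl1, at -0.43 (95% interval -1.06 to 0.21). In LU against ND none was called, beside 6.58% of all genes. Nnat was lower in LU than in ND mice by a fold under 1.5, with every LU mouse below every ND mouse (log2 fold change -0.44, 95% interval -0.66 to -0.22, adjusted p = 0.016, limma). Grb10 (-0.59, unadjusted p = 0.021) and Cdkn1c (-0.54, unadjusted p = 0.044) were the other genes with an unadjusted p under 0.05, with adjusted p of 0.11 and 0.17 by limma. Plagl1 was called lower in LU mice without ND 2 (-0.94, adjusted p = 0.049) and Cdkn1c without ND 3 (-0.86, adjusted p = 0.012). With 3 mice in each group the exact permutation test of a single gene cannot give a two-sided p under 0.1, which was its value in each comparison without overlap.

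The tissue itself changed with the diet. In these bulk samples, fewer cells of a type and less RNA per cell cannot be told apart. The summed level of 7 adipocyte markers (Adipoq, Plin1, Cidec, Lipe, Plin4, Adrb3 and Lpl) ran from 12316 to 13007 FPKM in ND, 8295 to 9229 FPKM in HFD, 10908 to 13758 FPKM in CLE and 10249.8 to 11459 FPKM in LU mice. Of these markers 6 were called lower in HFD against ND, 6 higher in CLE against HFD and 3 higher in LU against HFD, so they moved with the imprinted genes. The 7 macrophage markers moved the other way, from 321 to 491 FPKM in ND mice to 2204 to 2530.0 FPKM in HFD mice, with 562 to 823 FPKM in CLE and 887 to 1009 FPKM in LU mice, and all 7 were called in each of these comparisons. The 7 progenitor markers summed to 244 to 349 FPKM over all mice, with 1 called lower in HFD against ND and 1 higher in LU against HFD. Ly6a makes up a large part of this sum, at a mean of 160 FPKM in ND and 106 FPKM in HFD mice. The median log2 fold change of the 7 was 0.34 in HFD against ND, with none called higher. The 5 endothelial markers summed to 198 to 322 FPKM in ND, 158 to 266 FPKM in HFD, 249 to 359.9 FPKM in CLE and 282 to 344 FPKM in LU mice, with 1 called lower in HFD against ND, 2 higher in CLE against HFD and 3 higher in LU against HFD. The mesothelial markers fell from 10.01 to 62.2 FPKM in ND mice to 2.32 to 7.36 FPKM in HFD mice, with 5 of 6 tested called lower. They stood at 7.77 to 12.7 FPKM in CLE and 8.43 to 17.9 FPKM in LU mice, with 1 called higher in each against HFD. The 5 liver markers summed to 13.9 to 33.5 FPKM in ND, 1.83 to 10.8 FPKM in HFD, 7.20 to 27.05 FPKM in CLE and 4.96 to 6.35 FPKM in LU mice, with 2 called lower in HFD against ND, 2 higher in CLE against HFD and none called in LU against HFD. Markers of skeletal muscle summed to at most 16.2 FPKM (CLE 11), and those of epididymis and testis to at most 5.49 FPKM, with Lcn5 under 0.1 FPKM in every library.

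For each 1000 FPKM of the summed adipocyte markers, a measure chosen after the values were seen, 5 of the 8 genes had every HFD mouse below every ND mouse. These were Nnat, at 91.6 ± 8.25 (SD, n = 3) in ND and 51.9 ± 2.17 in HFD mice, Peg3 (13.6 ± 3.44 and 8.77 ± 0.936), Grb10 (3.09 ± 1.05 and 1.66 ± 0.122), Igf2 (0.326 ± 0.112 and 0.155 ± 0.0252) and Sgce (4.12 ± 0.223 and 3.72 ± 0.12). Cdkn1c and Plagl1 overlapped on this measure. The share of all genes without overlap on this measure was not computed for any comparison, so these counts have no background beside them. Lpl makes up a large part of the marker sum and did not fall, at a mean of 3800 FPKM in ND and 3907 FPKM in HFD mice. The ratios therefore depend on which markers are summed, and a sum without Lpl was not tested. Mest lay above, at 48.7 ± 9.91 in ND and 85.9 ± 7.04 in HFD mice, with no overlap. Every CLE mouse (63.0 ± 16.5 on average) lay below every HFD mouse, but barely. The highest CLE mouse had 80.05 and the lowest HFD mouse 80.23. The LU mice (67.6 ± 18.6) overlapped the HFD mice. In unscaled FPKM the CLE and HFD mice overlapped for Mest. Nnat, Peg3, Grb10 and Igf2 stayed above the HFD mice in both CLE and LU mice on this measure, and Sgce in LU mice. How far the makeup of the tissue enters the falls was not tested beyond these ratios.

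Imprinted genes lie in clusters, and neighbours of the members were read from a list of 35 genes, of which 19 were tested. In HFD against ND 4 of the 19 rose and 6 fell past the call, around a median log2 fold change of 0.04, a share of 52.6% beside 25.7% of all genes. In CLE against HFD 2 were called higher and 1 lower (15.8%, beside 16.5% of all genes), and in LU against HFD 2 higher and none lower (10.5%, beside 12.4%). The neighbours thus moved in both directions.

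On chromosome 7, Zim1, the zinc finger gene next to Peg3, moved as Peg3 did. It measured 15.8, 5.76 and 9.69 FPKM in the ND mice, 3.42, 2.67 and 3.71 FPKM in the HFD mice, 10.99, 23.3 and 9.98 FPKM in the CLE mice, and 11.1, 17.2 and 11.1 FPKM in the LU mice. The log2 fold change was -1.33 ± 0.34 (SE) in HFD against ND (adjusted p = 0.0071), 1.796 ± 0.34 in CLE against HFD (adjusted p = 0.0021) and 1.71 ± 0.34 in LU against HFD (adjusted p = 0.0041), by limma. Usp29, which starts beside Peg3 on the other strand, did not exceed 0.0567 FPKM in any library.

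On chromosome 2, Nnat lies inside an intron of Blcap, which is read from the other strand. The annotated exons of the pair do not overlap. Blcap measured 104 to 120.3 FPKM in the ND mice and 54.1 to 62.0 FPKM in the HFD mice, a log2 fold change of -0.92 ± 0.09 (SE, adjusted p = 1.2e-05, limma). It was higher in CLE (0.55 ± 0.09, adjusted p = 0.00099) and LU (0.42 ± 0.09, adjusted p = 0.0073) than in HFD mice by folds under 1.5, by limma.

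On chromosome 6, Sgce and Peg10, a gene derived from a retrotransposon, start next to each other on opposite strands and are both read from the paternal copy. They moved in opposite directions with the diet. Peg10 measured 3.73, 3.76 and 11.4 FPKM in the ND mice, 40.4, 22.6 and 26.8 FPKM in the HFD mice, 28.1, 25.9 and 26.3 FPKM in the CLE mice, and 25.3, 44.96 and 32.7 FPKM in the LU mice. It was higher in HFD than in ND mice by 2.201 ± 0.34 on the log2 scale (adjusted p = 0.00029, limma). Peg10 was not called in CLE or LU against HFD (-0.12 and 0.20, adjusted p = 0.83 and 0.71, limma), and it stayed above ND in CLE (2.09, adjusted p = 0.014) and LU mice (2.40, adjusted p = 0.0019). Casd1, on the other side of Sgce, was not called (-0.15, adjusted p = 0.17, limma). Farther along the cluster, Pon1, a paraoxonase, was lower (-1.95 ± 0.23, adjusted p = 3.5e-05) and Tfpi2, a protease inhibitor, higher (1.78 ± 0.23, adjusted p = 6.2e-05) in HFD than in ND mice, by limma.

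**Figure D4:**
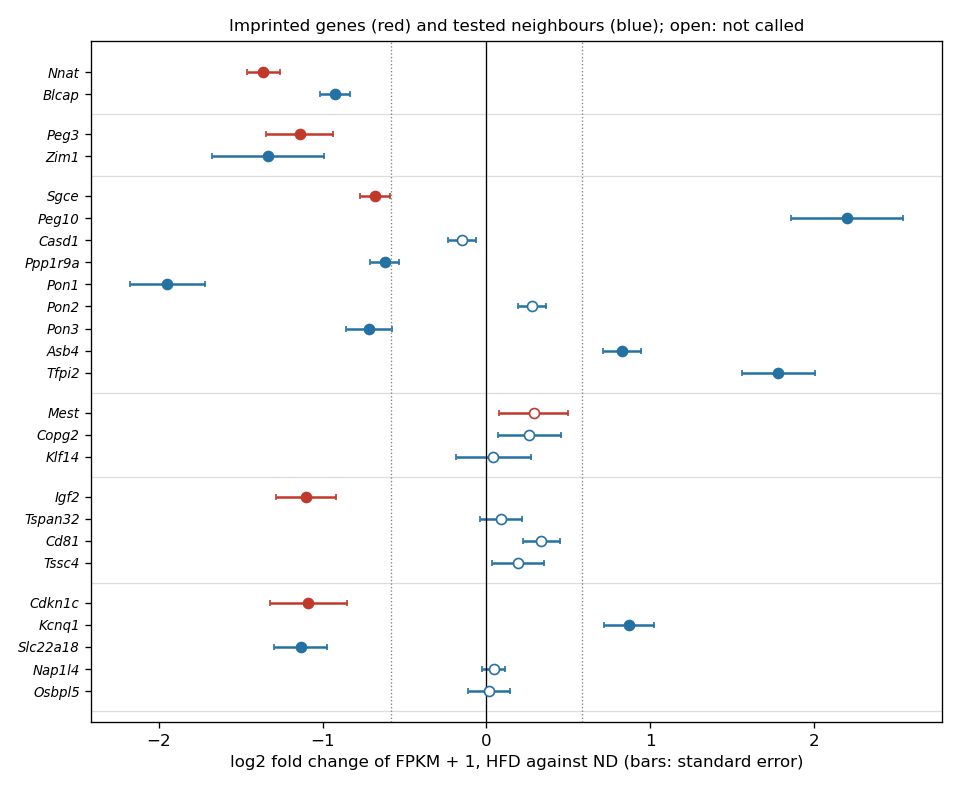
Log2 fold change of FPKM + 1 in HFD against ND (horizontal axis, with the standard error as bars) of 6 imprinted genes (red) and the tested genes of their clusters (blue). Filled points were called; Blcap and Zim1 lie on the same side as Nnat and Peg3, and Peg10 lies on the other side from Sgce.

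Near Cdkn1c on chromosome 7, Slc22a18, a transporter that is also read from the maternal copy, was called in all 3 comparisons with HFD mice. Its log2 fold change was -1.13 ± 0.16 (SE) in HFD against ND (adjusted p = 0.00016), 0.87 ± 0.16 in CLE against HFD (adjusted p = 0.0018) and 0.85 ± 0.16 in LU against HFD (adjusted p = 0.0033), by limma. Kcnq1, on the other side of Cdkn1c, moved the other way. It was called higher in HFD against ND (log2 fold change 0.87) and lower in CLE against HFD (-0.59). In LU against HFD it stood at -0.39 and was not called. Phlda2 in the same cluster was listed at 0 in every library, as was Ins2 beside Igf2. The genes on either side of Grb10, Ddc and Cobl, stayed under 1.02 FPKM and were not tested.

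Among 36 other genes known as imprinted in some tissue 21 were tested, with 2 called higher and 2 lower in HFD against ND, a share of 19.05% beside 25.7% of all genes. Gatm, the first enzyme of creatine synthesis, was higher in HFD mice (1.77 ± 0.11 (SE), adjusted p = 7.3e-07, limma) and lower again in CLE (-1.31) and LU mice (-1.04). Igf2r, the receptor that clears IGF2, was also higher (0.89 ± 0.13, adjusted p = 0.00017) and lower in CLE (-0.76) and LU mice (-0.70), opposite to Igf2. Slc22a3, a transporter of organic cations from the same cluster as Igf2r, fell with the high-fat diet (-1.12 ± 0.11, adjusted p = 9.7e-06) and was higher in CLE (0.90) and LU mice (0.78). Ano1, a chloride channel, was lower in HFD mice (-0.69 ± 0.19, adjusted p = 0.011) and was not called in the other comparisons with HFD.

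Of 30 partners and relatives of the members 21 were tested, with 3 called higher and 2 lower in HFD against ND, 23.8% of them and near the 25.7% of all genes. Insr, the insulin receptor on which Grb10 acts, was lower in HFD mice (-1.03 ± 0.11 (SE), adjusted p = 2.5e-05, limma) and higher in CLE mice (0.73, adjusted p = 0.0006). Grb14, a relative of Grb10, was lower too (-0.60 ± 0.17, adjusted p = 0.011). Igf2bp2, which binds Igf2 mRNA, was higher in HFD mice (1.33 ± 0.15, adjusted p = 2.8e-05) and lower in CLE (-1.46) and LU mice (-1.33). Adam17, the protease that sheds the outer part of DLK1, was higher (1.21 ± 0.10, adjusted p = 3e-06), and Plagl2, a relative of Plagl1, was higher as well (0.62 ± 0.11, adjusted p = 0.00075). Both were lower again in CLE and LU mice, at -0.99 and -0.80 for Adam17 and -0.64 and -0.60 for Plagl2. Grb7 was called in CLE against HFD alone among these 3 comparisons (-0.76 ± 0.24, adjusted p = 0.031).

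Of 12 genes known for fat expansion 11 were tested, with 4 called higher and 2 lower in HFD against ND, 54.5% of them beside 25.7% of all genes. Lep, which encodes leptin, was higher in HFD mice by 2.34 ± 0.23 on the log2 scale (SE, adjusted p = 9.5e-06, limma) and lower in CLE (-1.08) and LU mice (-1.18). Sfrp5, a Wnt antagonist that rises in enlarging fat cells, was higher by 1.78 ± 0.32 (adjusted p = 0.00073) and stood at 0.06 in both CLE and LU against HFD (adjusted p = 0.91 for each). Bmp3 (0.99 ± 0.26, adjusted p = 0.0087) and Vldlr (0.64 ± 0.13, adjusted p = 0.0015) were higher in HFD mice, and Fabp4 (-0.85 ± 0.10, adjusted p = 3.7e-05) and Adipoq (-0.84 ± 0.12, adjusted p = 0.00019) were lower. Mest, at 0.29, passed no test in the same comparison.

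The genes whose levels over the 12 libraries were most like those of each called member were named by Pearson's r of log2(FPKM + 1), as a description. The libraries share the diets, so a high r follows for any gene that HFD mice hold apart. For Nnat these were Palm (r = 0.98), Npdc1 (0.97) and 1700029J07Rik (0.97), and for Peg3 Tmbim1, Rgl1 and Arhgef28 (0.97 each). For Igf2 they were Per3, Il15ra and Gphn (0.97 to 0.98). For Grb10 they were Ormdl3, Bckdha and Pdk2 (0.97 to 0.98), and for Sgce Adipoq, Dtd1 and Tspo (0.97 to 0.98). The values were lower for Plagl1 with Arl6, Morc4 and Rbbp9 (0.93 to 0.96) and for Cdkn1c with Otud1, Klhl26 and Ism1 (0.93 to 0.95).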

How the data were processed

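RNA of eWAT was measured in 12 libraries, 3 mice in each of 4 groups taken from the sample labels. The authors prepared paired-end TruSeq libraries with reads of 100 bases, and the submitters' processing notes name CASAVA 1.8.2, Bowtie2 2.2.3, TopHat2 2.0.12 and Cufflinks 2.2.1. The authors deposited FPKM values per transcript for 15 columns, of which 3 match no sample and were not used. Columns that hold the authors' own calls between groups were not used. The genome build is not given in the sources used here, and 87.6% of 77000 annotated transcripts had the same positions as in GENCODE M21 (GRCm38).

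Transcripts with an Ensembl identifier, either annotated or assembled with the same or partly shared splice junctions (class codes = and j), were summed per gene. The sums over genes ran from 437337 to 457183 FPKM per library. FPKM carries no depth, so no counting interval is given. A check of the low values for steps of whole reads lacked the value of a single read and cannot decide whether they exist. Mice of a group correlated at 0.979 to 0.992 over genes.

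Genes were tested with limma 3.58.1 (R 4.3.3), after log2 transformation of FPKM with a pseudocount of 1, with all 12 libraries in 1 fit, no covariate, and Benjamini-Hochberg adjustment over the 12793 genes that reached 1 FPKM in 3 or more libraries. A gene was called at an adjusted p under 0.05 and a fold over 1.5. The paper's count test was not repeated, since the table holds no counts. Tables were made with Python 3.11.15, pandas 2.3.3, numpy 2.4.6 and scipy, and plots with matplotlib 3.10.9.

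All 10 members are named in the text. Of the other lists, genes called in at least 1 comparison are named, at most 6 per list by the size of their change in HFD against ND, along with direct neighbours of called members. Copg2 was named because its exons overlap those of Mest, after its values were seen. Gm49394 and Gm44732 were named because their exons overlap those of Igf2 and Cdkn1c. For each called member the 3 genes most like it are named. The members and the lists were chosen with earlier results of these data known. Nothing says that the libraries of a group are other than separate mice, and p-values measure the spread between them. The alternatives were other pseudocounts, filters, scalings, moderation, transcripts, the letter R, the mouse number as a block, and leaving out each library.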

Additional observations from a re-analysis of the deposited data

How the results depend on the processing

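Over the 48 log2 fold changes of the 8 tested genes in 6 comparisons, 1290 refits under the alternatives left 1256 on the same side of the call, with 24 calls lost, 10 gained and 0 reversed. In uncalled differences the sign turned in 12 of these results, among them Mest in CLE against HFD under 5 alternatives. In HFD against ND 7 members were called, and 7 in every refit that left out 1 library. The count was 5 without the assembled transcripts of class code j, and without the libraries with the letter R 5 genes were called lower and Mest higher. In CLE against HFD the count was 6, and 4 to 7 with a library left out. In LU against HFD it was 4, and 2 to 4 with a library left out, the 2 arising without HFD 12. In LU against ND it was 0 and became 1 without the libraries with the letter R (Cdkn1c), 1 with the adjusted p alone (Nnat), and 0 to 1 with a library left out, the 1 arising without ND 2 (Plagl1) or without ND 3 (Cdkn1c). In CLE against LU and in CLE against ND it was 0 under all alternatives run. The 3 other scalings (quantiles, median ratios, equal totals) left the counts at 7, 6 and 4 in the 3 comparisons with HFD. Mouse numbers shared between groups do not mark shared animals, so they do not pair the libraries. With the mouse number as a random replicate block, at an estimated correlation of 0.087, the count was 7 in HFD against ND, 6 in CLE against HFD, 4 in LU against HFD and 0 in each of the other 3 comparisons. Deviations of libraries with the same number correlated at -0.10 to 0.18 across genes. No HFD library carries the letter R, so within those that carry it no comparison with HFD mice can be made. The depth behind the values is unknown, and 3 mice a group limit the precision.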
